A study of Mus musculus with 4 samples.

Results

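The genes described here encode 10 proteins that bind calcium, membranes, sugars or matrix, and they were followed through 7 days of glyoxylate in the mouse kidney. They are 4 S100 genes (S100a1, S100a6, S100a10 and S100a11), 4 annexin genes (Anxa1, Anxa2, Anxa3 and Anxa5), Lgals3, which encodes galectin-3, and Cd44, which encodes a receptor for hyaluronan. These 10 of the 27998 genes in the deposited tables were picked from the levels measured in these same libraries, so every level below is a description of chosen genes. Kidneys came from male C57BL/6 mice of 6 to 8 weeks that received glyoxylate by intraperitoneal injection for 0, 1, 4 or 7 days (D0, D1, D4 and D7), and no other genotype or agent is named in the labels, nor the dose. Cells were freed with trypsin and DNase and sequenced with the 10x Genomics 3' v2 droplet method, which tags each captured RNA molecule with a unique molecular identifier (UMI). Each day has 1 library and the labels do not give the number of mice in it, so no test between animals was possible. All intervals are 95% intervals that cover counting error only.

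Glyoxylate is turned into oxalate, which forms calcium oxalate crystals in the renal tubule. S100 proteins are small calcium-binding proteins, and annexins bind membrane lipids when calcium is present. The products of S100a10 and Anxa2 join into 1 complex at the inner face of the plasma membrane, where Ahnak also binds, and S100a11 binds annexin A1. Annexins, CD44 and its ligand osteopontin are known as crystal-binding molecules of the tubule surface, and galectin-3 is a secreted lectin of macrophages and injured epithelium. Havcr1 encodes KIM-1, a receptor that injured proximal tubule cells make.

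Cells were taken by UMIs of a few gating genes, after barcodes with over 50% mitochondrial UMIs were left out. Proximal tubule cells had at least 2 UMIs of Lrp2 and Slc34a1 together and none of the leukocyte gene Ptprc, and they were split into cells without and with a Havcr1 UMI. Thick limb cells had at least 3 UMIs of Slc12a1, distal cells at least 3 of Slc12a3, and Lyz2-high cells, a gate for phagocytes, at least 5 of Lyz2. The proximal tubule gate held 11751, 7635, 15040 and 12625 cells at D0, D1, D4 and D7, of which 8, 108, 460 and 580 had Havcr1. There were 106, 108, 106 and 173 thick limb cells, 353, 264, 208 and 310 distal cells and 176, 341, 165 and 435 Lyz2-high cells. A cell could enter more than 1 gate. Of the thick limb cells 29, 22, 54 and 80 were also in the proximal tubule gate. So were 130, 65, 143 and 141 distal cells and 7, 3, 27 and 38 Lyz2-high cells. Median depth in the proximal tubule gate was 5679, 6976, 5014 and 5685 UMIs per cell. UMIs were summed over the cells of a gate in each library and are given per 1000000 UMIs of that sum (CPM). Lowest depths per barcode were 500 UMIs at D0 and D1 but 2919 at D4 and 2773 at D7, so the libraries were not cut at 1 depth. Between 50 and 81 barcodes were shared by a pair of libraries, at most 0.537% of the smaller one.

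Other cells sat inside these gates, and they touch several values below. In the proximal tubule gate 36, 40, 29 and 22 cells had at least 2 UMIs of urothelial markers (Upk1a, Upk1b, Upk3a, Krt5, Krt15) or of mesenchymal ones (Col1a1, Col1a2, Col3a1, Pdgfrb, Dcn), and none of them had Havcr1. Any class outside the nephron was marked in 226, 437, 417 and 572 cells. All cells with urothelial markers, in or outside the gate, held S100a6 at 25956 CPM at D0 and 22357 CPM at D7. Proximal tubule RNA was also present in the other gates: the median of 10 proximal tubule markers stood at 26.5 to 38.5% of its proximal tubule level in thick limb cells, at 17.8 to 45.5% in distal cells and at 25.9 to 50.0% in Lyz2-high cells. Each class of markers (8 proximal tubule, 6 thick limb, 6 distal and 10 phagocyte) was highest in its own gate on all 4 days. Every list held the gating genes of its gate, so this order was partly fixed by the gating. In the distal gate at D7 the median thick limb marker stood at 9.71% of its thick limb level, with single markers between 0 and 131%.

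**Figure D1:**
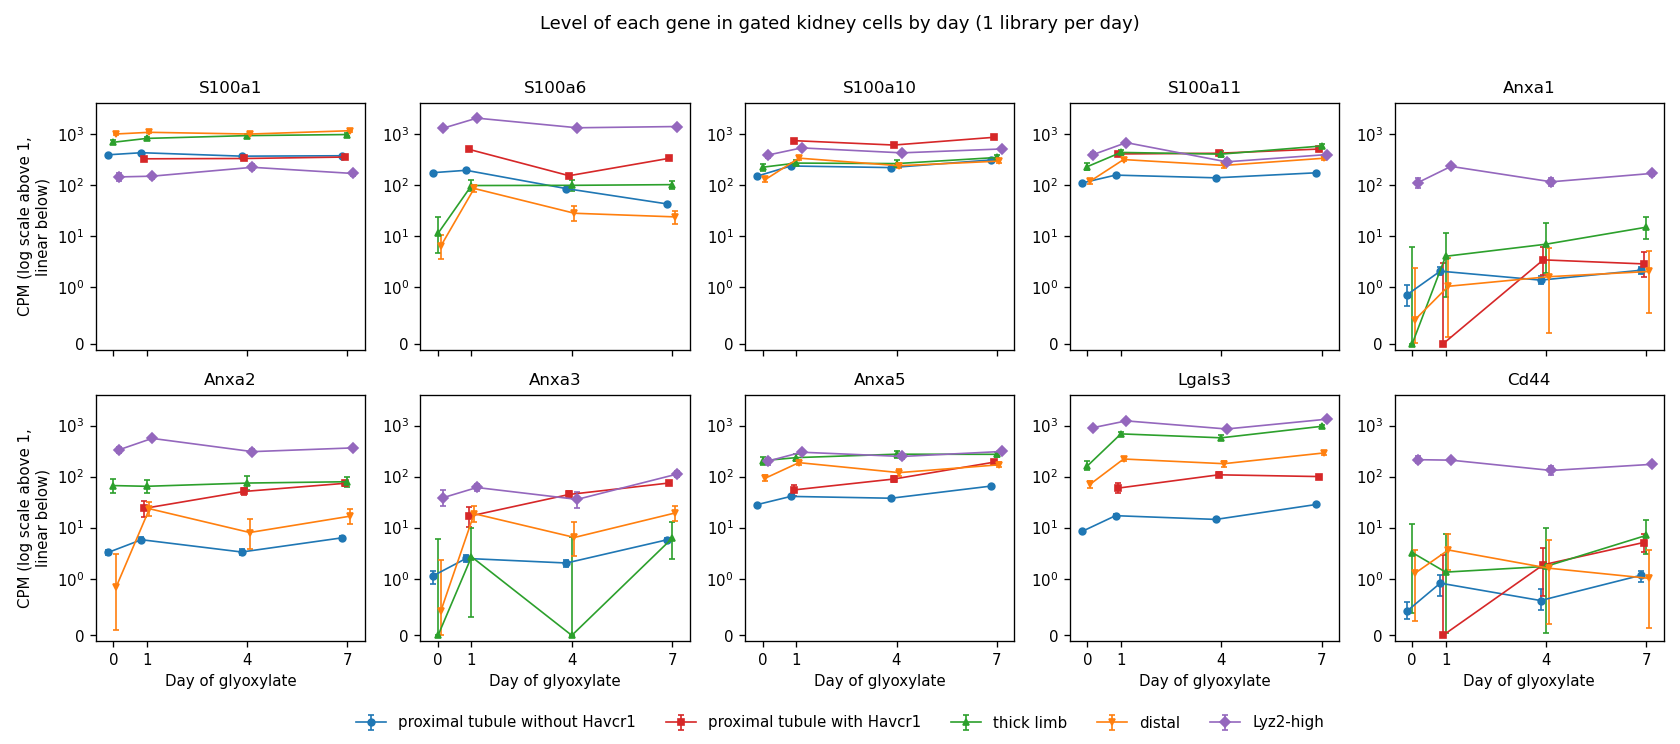
Level of each of the 10 genes in CPM by day of glyoxylate, in 5 gates, with 1 library per day and 95% counting intervals; the axis is logarithmic above 1 CPM and linear below, and proximal tubule cells with Havcr1 start at D1 because D0 held 8 of them. Lgals3 stepped up between D0 and D1 in the thick limb and distal gates, and Anxa1 and Cd44 were far higher in Lyz2-high cells than in any tubule gate.

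In proximal tubule cells, S100a10 and S100a11 were higher on each day of glyoxylate than before it, and S100a1 stayed near its starting level. S100a10 encodes p11, the partner of annexin A2, and it stood at 151, 247, 235 and 345 CPM at D0, D1, D4 and D7. All treated libraries lay above D0, with D7 highest. Its level at D7 was 2.29 (95% interval 2.24 to 2.34) times that at D0, from 28341 and 12049 UMIs. S100a11, the partner of annexin A1, stood at 111, 162, 149.7 and 194 CPM, and the D7 level was 1.76 (1.71 to 1.80) times that at D0. It followed the same course at a smaller size. S100a1, best known as a calcium sensor of muscle, stood at 393, 429.6, 368 and 375 CPM. D1 was highest and D4 lowest, close together, and the D7 ratio was 0.955 (0.940 to 0.970).

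Higher levels of S100a10 and S100a11 were also seen in the cells without Havcr1. S100a10 stood at 151, 237, 221 and 312 CPM there, a D7 ratio of 2.07 (2.02 to 2.12). S100a11 stood at 110.5, 157, 139 and 174 CPM, a D7 ratio of 1.58 (1.54 to 1.62). Thinned to 1000 UMIs per cell, an S100a10 UMI was found in 12.8% of proximal tubule cells at D0 (12.2 to 13.4, Clopper-Pearson) and in 24.6% at D7 (23.9 to 25.4), against 46.3 and 69.9% without thinning. More cells held the gene at D7 at equal depth. None of the gates lacks S100a10, so no share in a cell type without the gene can be set beside these.

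S100a6, which encodes calcyclin, gave opposite directions with and without a few cells of another kind. Over the whole proximal tubule gate it stood at 175, 201, 88.0 and 60.4 CPM, so D7 was lowest, at 0.345 (0.334 to 0.356) times D0. At D0, 13030 of its 13985 UMIs (93.2%) lay in the 36 cells with urothelial or mesenchymal markers. At D7 the share was 17.4%, in 22 cells. Without these cells, a choice made after the data were seen, S100a6 stood at 12.0, 41.9, 18.5 and 50.0 CPM, and D7 was 4.15 (3.87 to 4.46) times D0. Without every cell marked for a class outside the nephron it stood at 11.01, 36.7, 13.4 and 40.0 CPM. Urothelial RNA remained without the urothelial or mesenchymal cells, by the median marker at 0.0402% of its urothelial level at D0 and 0.0112% at D7. Times the urothelial S100a6 levels given above, this gives most of the 12.0 CPM at D0 and a small part of the 50.0 CPM at D7. The size of the ratio of 4.15 thus rests on a D0 level near that of carried urothelial RNA. The direction over the gate thus turned when at most 40 cells per library were left out, and the values that remained were higher at D1 and D7 than at D0 and D4.

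S100a6 was also spread unevenly over cells with Havcr1, none of which reached 2 UMIs of urothelial or mesenchymal markers. Of the 1643 UMIs in cells with Havcr1 at D7, 90.9% lay in the 10 highest of 580 cells. At D1, 620 of 634 UMIs in cells with Havcr1 came from 1 cell. After thinning, the share of proximal tubule cells with an S100a6 UMI was 2.21, 3.23, 1.12 and 1.39% (6.66, 9.78, 3.52 and 4.71% unthinned), beside 1.16% of distal cells at D0. These shares do not follow the CPM of the cleaned gate, so no order of the days is read from them.

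**Figure D2:**
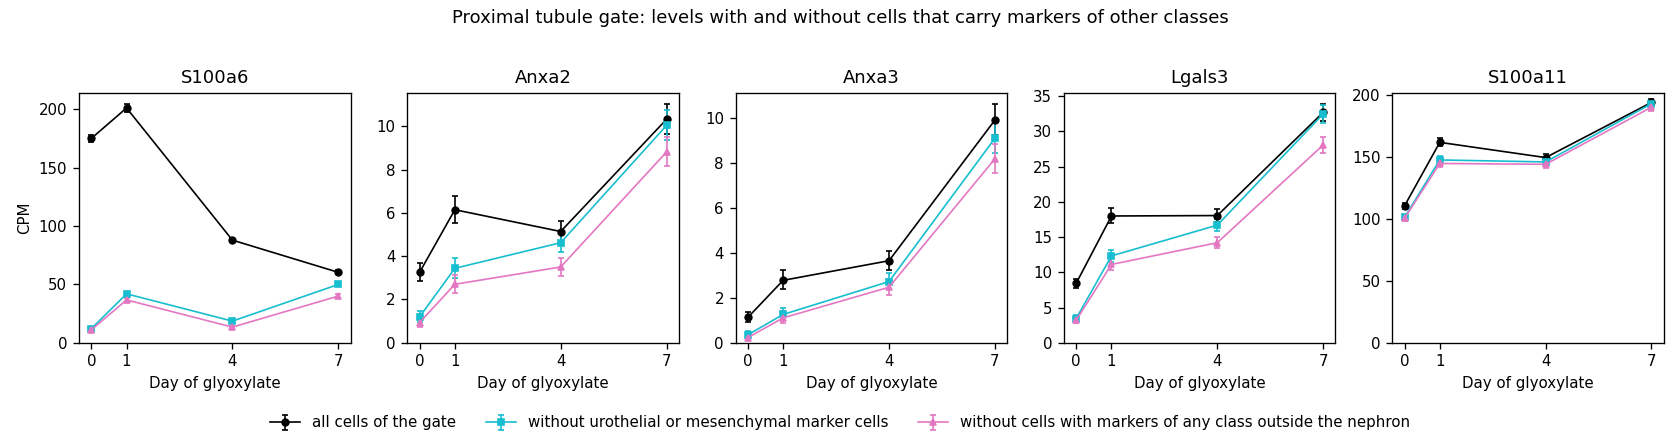
CPM by day in the proximal tubule gate for 5 genes with all cells, without cells marked as urothelial or mesenchymal, and without cells marked for any class outside the nephron; bars are 95% counting intervals and each axis starts at 0. S100a6 goes down to 60.4 CPM at D7 with all cells and up to 50.0 CPM without the urothelial or mesenchymal ones, while S100a11 hardly depends on them.

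Annexin genes were higher at D7 than at D0 in the proximal tubule gate, and Anxa3 had the largest ratio of the 10 genes. Anxa5, a phosphatidylserine-binding annexin, stood at 28.3, 41.2, 39.7 and 72.9 CPM. D7 was apart from the other libraries, at 2.57 (2.45 to 2.70) times D0. Anxa3, an annexin of granulocytes and some epithelia, stood at 1.13, 2.77, 3.64 and 9.88 CPM from 90, 178, 308 and 812 UMIs, and D7 was 8.77 (7.05 to 11.03) times D0. Anxa2, the membrane partner of p11, stood at 3.26, 6.15, 5.14 and 10.3 CPM, and D7 was 3.17 (2.76 to 3.66) times D0. For both genes most of the D0 UMIs came from the urothelial or mesenchymal cells (68.9% for Anxa3 and 63.5% for Anxa2). Without those cells Anxa3 stood at 0.353, 1.26, 2.72 and 9.07 CPM and Anxa2 at 1.20, 3.44, 4.63 and 10.0 CPM. The order of days then ran upward from D0 to D7 for both, and the D7 ratios were 25.7 (17.7 to 39.0) and 8.40 (6.78 to 10.5).

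Lgals3 followed the same course. Galectin-3 RNA stood at 8.44, 18.0, 18.0 and 32.7 CPM in the proximal tubule gate, and D7 was 3.87 (3.56 to 4.22) times D0. Urothelial or mesenchymal cells held 59.5% of its UMIs at D0 and 0.894% at D7. Without them it stood at 3.44, 12.3, 16.7 and 32.5 CPM and the D7 ratio was 9.44 (8.33 to 10.7). As with Anxa2 and Anxa3, D0 was lowest and D7 highest with and without these cells, and the size of the ratio depended on them.

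All 10 genes are protein-coding in the GENCODE M21 annotation of mm10, matched by gene ID, and 5 of them lie on chromosome 3. That annotation is not known to be the one behind the counts. S100a10 spans chr3:93555080-93564643 on the plus strand and S100a11 spans chr3:93520488-93526287 on the plus strand, so these genes lie close together on 1 strand. S100a1 lies at chr3:90511034-90514392 on the minus strand and S100a6 at chr3:90612882-90624181 on the plus strand. Anxa5 lies at chr3:36448923-36475894 on the minus strand, Anxa2 at chr9:69453620-69491795 on the plus strand, Anxa3 at chr5:96793339-96845966 on the plus strand and Anxa1 at chr19:20373428-20390944 on the minus strand. Lgals3 lies at chr14:47367751-47386160 on the plus strand and Cd44 at chr2:102811141-102901665 on the minus strand. S100a11 has a processed pseudogene named S100a11-ps in that annotation, and antisense models overlap Anxa1 (1500015L24Rik) and Anxa2 (Gm16144), so reads shared with these could be split differently by another counting.

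RefSeq promoters of build GRCm38.p6 were at hand for 8 of the 10 genes (S100a10 and Anxa3 had no entry), and the 250 bases before the start site were searched on both strands for the AP-1 letters TGANTCA, the TEAD letters GGAATG and the STAT letters TTCNNNGAA. These motifs were chosen after the sequences were seen, and the windows below are shown as those of the genes that hold the AP-1 letters. S100a11 and Anxa2 held the AP-1 letters, Anxa1 the TEAD letters and none the STAT letters. Of all 32851 RefSeq promoters of the same length 6.75% hold the AP-1 letters, 12.6% the TEAD letters and 7.02% the STAT letters. The AP-1 windows are printed 5' to 3' on the plus strand, the strand of both genes, with the matching letters in capitals.
S100a11, chr3:93520335-93520391, 136 bases before the start: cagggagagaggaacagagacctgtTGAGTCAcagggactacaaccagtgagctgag
S100a11, chr3:93520433-93520489, 38 bases before the start: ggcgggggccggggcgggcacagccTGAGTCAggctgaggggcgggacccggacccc
Anxa2, chr9:69453563-69453619, 95 bases before the start: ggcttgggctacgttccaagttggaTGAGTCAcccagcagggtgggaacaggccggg
A match says only that the letters are there.

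Anxa1 and Cd44 were near the lower limit of what these libraries can show in proximal tubule cells. Anxa1, an anti-inflammatory annexin abundant in leukocytes, stood at 0.864, 2.02, 1.45 and 2.19 CPM from 69, 130, 123 and 180 UMIs. Cd44 stood at 0.426, 0.903, 0.662 and 1.40 CPM from 34, 58, 56 and 115 UMIs. Both D7 ratios were above 1, at 2.54 (1.91 to 3.40) and 3.29 (2.23 to 4.97), at levels near those that RNA carried over from immune cells gives (below). Anxa1 kept 22 of its 69 UMIs at D0 and 105 of 180 at D7 without urothelial or mesenchymal cells. It then stood at 0.277, 0.802, 0.818 and 1.28 CPM, and its D7 ratio was 4.62 (2.90 to 7.69).

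All 10 genes had at least 50 UMIs over each pair of proximal tubule libraries, the minimum for counting a gene. The 3 comparisons share the D0 library. A gene was counted as higher or lower when its CPM plus 1 differed by at least 1.5-fold. At D1, 5 of the 10 were higher and 0 lower, where 1.62% of all genes tested were higher and 0.717% lower. At D4, 3 (S100a10, Anxa3 and Lgals3) were higher and 1 (S100a6) lower, against 4.49% and 1.01% of all genes. At D7, 8 were higher and 1 (S100a6) lower, against 7.24% and 1.62% of all genes. The median log2 ratio of the 10 genes at D7 was 1.00, beside 0.06 over all genes. Since the genes were picked from these values, nothing is read from the distance between the 2 medians. Without urothelial or mesenchymal cells 9 were higher and 0 lower at D7, against 7.45% of all genes higher. Without every cell marked for a class outside the nephron 7 were higher and 0 lower, against 6.91% and 1.33% of all genes, and Anxa1 and Cd44 no longer passed.

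In the cells without Havcr1 the counts were 5 higher at D1 (all genes 1.51%), 1 at D4 (4.21%) and 8 at D7 (6.57%). S100a6 was counted as lower there at D4 and D7, where 0.993% and 1.53% of all genes were lower, and no gene was at D1, with 0.734% of all genes. The gene higher at D4 was Lgals3. Anxa2 was at 1.02 times D0 in these cells at D4, and Anxa3 at 1.80 times. Without urothelial or mesenchymal cells these ratios were 2.33 (1.82 to 2.99) and 3.004 (1.94 to 4.78), and both genes were then counted as higher at D4. Without every cell marked for a class outside the nephron they were 1.70 (1.26 to 2.30) and 3.80 (2.23 to 6.78), and Anxa3 was counted as higher and Anxa2 was not.

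Within a library, proximal tubule cells with Havcr1 held more of 8 of the 10 genes at D7 than cells without it. This comparison sets cells of the same library side by side and cells with Havcr1 were deeper, with a median of 7655.5 against 5617 UMIs at D7. S100a10 stood at 865 CPM with and 312 CPM without Havcr1, a ratio of 2.77 (2.68 to 2.87). S100a11 stood at 509 and 174 CPM, a ratio of 2.92 (2.80 to 3.05). Anxa5 stood at 192 and 65.3 CPM, a ratio of 2.94 (2.73 to 3.15). These 3 genes had ratios between 2.77 and 2.94.

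Anxa2 and Anxa3 differed far more between the same cells. Anxa2 stood at 73.8 CPM with and 6.32 CPM without Havcr1, a ratio of 11.7 (10.2 to 13.4). Anxa3 stood at 75.0 and 5.76 CPM, a ratio of 13.03 (11.3 to 15.0). At D4 the ratios were larger, at 15.4 (12.6 to 18.7) for Anxa2 and 22.0 (17.5 to 27.7) for Anxa3. At D1 they were 4.11 (2.73 to 5.97) from 30 UMIs and 6.68 (4.02 to 10.6) from 21 UMIs, and 1 cell held 12 of the latter. All of these ratios were larger without the urothelial or mesenchymal cells, which lie among the cells without Havcr1. For Anxa2 they were then 7.86, 18.4 and 12.3 at D1, D4 and D7. For Anxa3 they were 17.6, 42.1 and 15.3. Without every cell marked for a class outside the nephron they were 10.6, 33.2 and 15.4 for Anxa2 and 19.6, 49.4 and 16.02 for Anxa3. Among proximal tubule cells with no UMI of Tyrobp, Fcer1g, Laptm5, Cd74 and Lyz2, the D7 ratios of CPM plus 1 were 5.44 for Anxa2, 6.53 for Anxa3 and 2.45 for S100a6, where all cells gave 10.2, 11.2 and 7.67. The direction held in these cells and the ratios were smaller.

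Lgals3 was higher with Havcr1 on all 3 days, at 59.5, 108 and 100.2 CPM against 17.2, 14.5 and 28.4 CPM without. Its level with Havcr1 was no higher at D7 than at D4, while the level without Havcr1 was highest at D7. The ratio accordingly went from 7.48 (6.61 to 8.44) at D4 to 3.53 (3.19 to 3.89) at D7. Cd44 had 25 UMIs in 9 of 580 cells with Havcr1 at D7, a level of 5.11 CPM and a ratio of 4.39 (2.70 to 6.90). It had 6 UMIs at D4 and none at D1, where 108 cells were summed. Anxa1 had 14 UMIs at D7, at a ratio of 1.33 (0.713 to 2.30), an interval that spans 1. Without cells marked for a class outside the nephron the ratios were 7.39 (3.99 to 13.2) for Cd44 and 4.02 (1.87 to 7.89) for Anxa1, from 18 and 11 UMIs with Havcr1. S100a1 was level between the 2 kinds of cell, at 355 and 376 CPM.

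Counted by the same rule, 6 of the 10 genes were higher with Havcr1 at D1, where 10.9% of all genes were. S100a6 was among these 6, and nearly all of its UMIs with Havcr1 came from a single cell, as given above. Anxa1 and Cd44, at 0 UMIs, were counted as lower, beside 12% of all genes. The upper interval bound at 0 UMIs with Havcr1 was 2.93 CPM for both. Levels without Havcr1 at D1 lay below that bound, at 2.06 CPM for Anxa1 and, without urothelial or mesenchymal cells, 0.770 CPM for Cd44. The calls for Anxa1 and Cd44 therefore cannot show that either gene was lower with Havcr1. At D4 9 of the 10 genes were higher and none lower, beside 7.8% and 6.87% of all genes. At D7 8 were higher and none lower, beside 9.7% and 4.66%. These 8 again included S100a6, with most of its UMIs in few cells. The median log2 ratio of the 10 genes was 1.37, 1.35 and 1.54 on the 3 days, beside 0.01, 0.00 and 0.08 over all genes.

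Several genes were graded by how many Havcr1 UMIs a cell held. At D7 there were 12045 cells with 0 Havcr1 UMIs, 340 with 1, 132 with 2 to 3 and 108 with 4 or more. Over these grades S100a10 stood at 312, 645, 941 and 1319 CPM. S100a11 stood at 174, 384, 492 and 831 CPM. Both went up at each grade. Anxa2 stood at 6.32, 33.2, 54.8 and 192 CPM over the 4 grades. Anxa3 stood at 5.76, 24.5, 63.5 and 209.5 CPM. Their step in CPM from the third to the fourth grade was the largest. Anxa5 stood at 65.3, 142, 209 and 295 CPM and Lgals3 at 28.4, 58.9, 67.0 and 235 CPM. S100a1 had no such order, at 376, 373, 319 and 349 CPM. Median depth went from 5617 to 8910.5 UMIs over the grades.

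At D4 S100a10, S100a11, Anxa2, Anxa3, Anxa5 and Lgals3 also went up at every grade, in 268, 96 and 96 cells with 1, 2 to 3 and 4 or more Havcr1 UMIs. Anxa2 stood at 3.33, 10.99, 51.2 and 139 CPM over the 4 grades. Anxa3 stood at 2.03, 10.99, 24.9 and 135 CPM. Lgals3 stood at 14.5, 39.9, 102 and 263 CPM. At D1, with 58, 25 and 25 such cells, S100a10 stood at 237, 591, 716 and 1041 CPM, again upward at each grade. Lgals3 stood at 17.2, 32.4, 3.39 and 155 CPM at D1, with 1 UMI in the third grade and 54 in the fourth, so its order at D1 rests on few molecules.

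**Figure D3:**
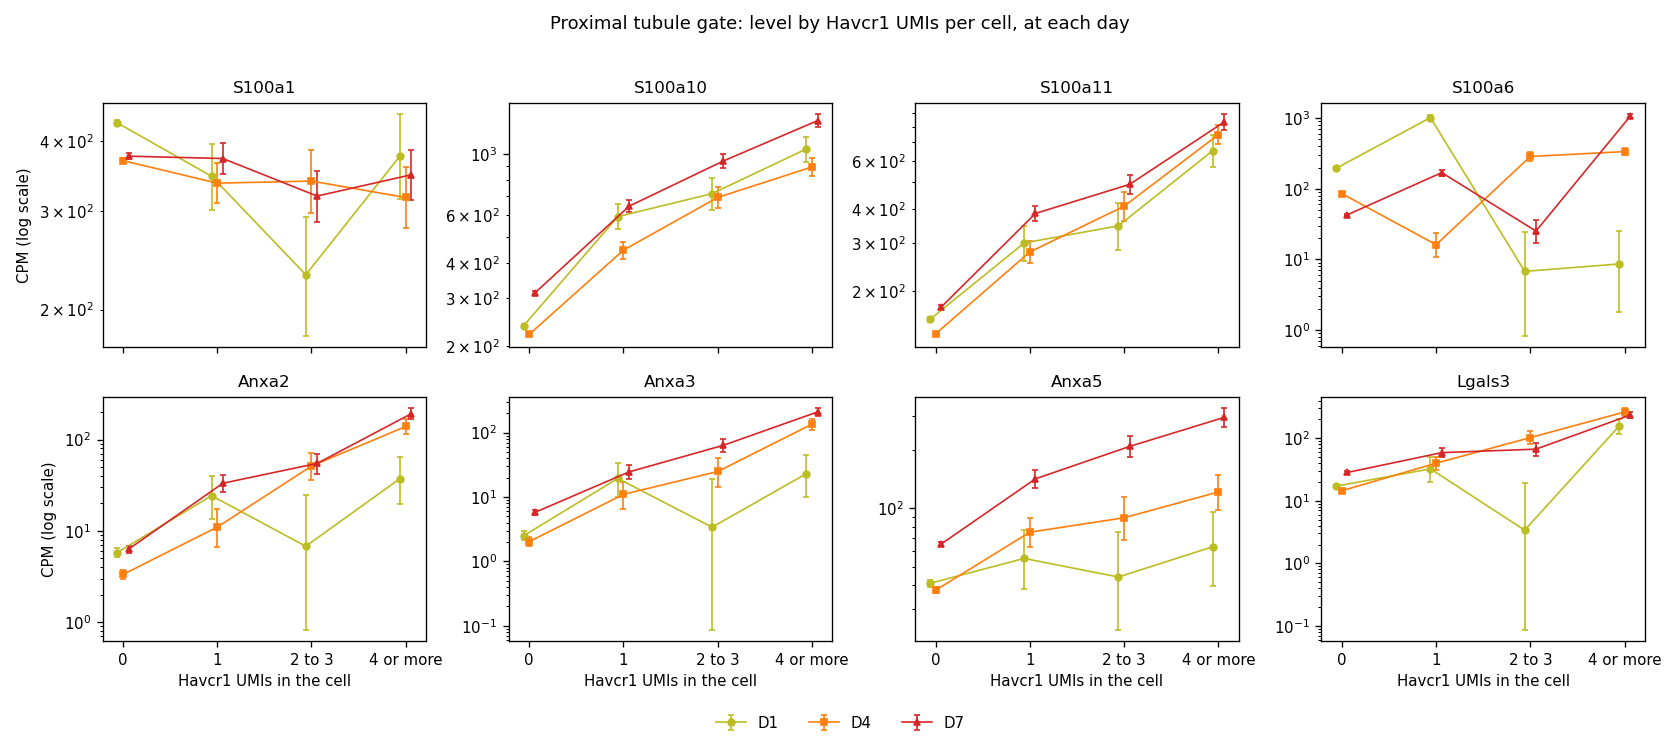
CPM of 8 genes in proximal tubule cells with 0, 1, 2 to 3 and 4 or more Havcr1 UMIs at D1, D4 and D7, on a logarithmic axis with 95% counting intervals. S100a10, S100a11, Anxa2, Anxa3, Anxa5 and Lgals3 go up over the grades at D4 and D7, S100a1 does not, and S100a6 has no steady order.

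At D4 and D7, cells with a UMI of S100a6, Anxa2, Anxa3 or Lgals3 held another of these genes more often than cells without that UMI. Among 539 cells with Havcr1 and fewer than 2 UMIs of the markers of each class outside the nephron at D7, Anxa3 was seen in 58.3% of the 108 cells with an Anxa2 UMI and in 6.50% of the other 431. Lgals3 was seen in 54.6% and 14.2% of the same cells. Their median depths were 8826.5 and 7255 UMIs, and depth by itself raises the chance of seeing a second gene. Among cells without Havcr1, Anxa3 was seen in 19.5% of 220 cells with Anxa2 and in 1.08% of the rest, at median depths of 7043 and 5558 UMIs. Anxa2 was seen there in 9.88% of 415 cells with S100a6 and in 1.61% of the rest. For comparison, an Anxa2 UMI was present in 0.283% of distal cells at D0, the lowest share of any gate with over 50 cells, at a median depth of 5793 UMIs.

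Most cells with Havcr1 had no UMI of S100a6, Anxa2, Anxa3 or Lgals3. Of the same cells, 338 of 539 (62.7%) had none, 106 had 1, 47 had 2, 28 had 3 and 20 had all 4. Of 11514 cells without Havcr1, 90.1% had none and 13 had all 4. At these depths a gene without a UMI in a cell may still be expressed there.

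RNA of immune cells in proximal tubule cells was measured from 11 immune markers that are not among the 10 genes (such as Tyrobp, Fcer1g and C1qa), as their level in the tubule gate over that in Lyz2-high cells. The median marker stood at 0.331, 0.416, 0.708 and 0.638% on the 4 days, with single markers between 0.142 and 1.34%. The measured share was thus lowest at D0. With Havcr1 the median was 0.291% at D7. Without cells marked for a class outside the nephron the gate medians were 0.0851, 0.150, 0.157 and 0.157%. Those cells were picked in part by the same markers, which by itself lowers the share. Multiplied by the level in Lyz2-high cells, the median share over all cells of a gate gives the level that carried RNA would produce.

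For S100a10, S100a11, Anxa5 and Anxa3 that level was small. At D7 in the whole gate it was 3.27 of 345 CPM for S100a10, 1.98 of 72.9 for Anxa5 and 0.718 of 9.88 for Anxa3. For Lgals3 it was 8.51 of 32.7 CPM, and 17.8 CPM by the highest marker. For Anxa2 it was 2.33 of 10.3 CPM. For these 2 genes the carried level was a larger part of the measured one than for S100a10. Among cells with Havcr1 it was 3.87 of 100.2 CPM for Lgals3 and 1.06 of 73.8 CPM for Anxa2. The median thick limb marker stood in the whole gate at 0.577% of its thick limb level at D0 and 1.19% at D7. Times the thick limb Lgals3 level (below), the D7 share gives more than those 8.51 CPM, and its part in the Lgals3 ratio was not tested. For S100a6 at D4 without urothelial or mesenchymal cells, the median immune marker stood at 0.710% and the highest at 1.18%. Times its Lyz2-high level (below), that gives a large part of the 18.5 CPM measured.

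Cd44 and Anxa1 were no higher than, or about at, the highest marker in cells without Havcr1. Cd44 stood at 1.16 CPM there at D7, and carried RNA gave 1.16 CPM by the median and 2.16 CPM by the highest marker. Anxa1 stood at 2.15 CPM, and carried RNA gave 1.14 and 2.10 CPM. Without urothelial or mesenchymal cells Anxa1 stood at 1.18 CPM there. In cells with Havcr1, Cd44 stood at 5.11 CPM against 0.505 and 4.95 CPM, just above the highest marker, which lay within its counting interval. Without cells marked for a class outside the nephron it stood at 4.04 CPM with Havcr1, where the highest marker gave 2.47 CPM. With the carried RNA taken off, Cd44 in cells without Havcr1 came to 0 at both D0 and D7. Whether tubule cells make either RNA was thus not detectable at this depth in cells without Havcr1.

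**Figure D4:**
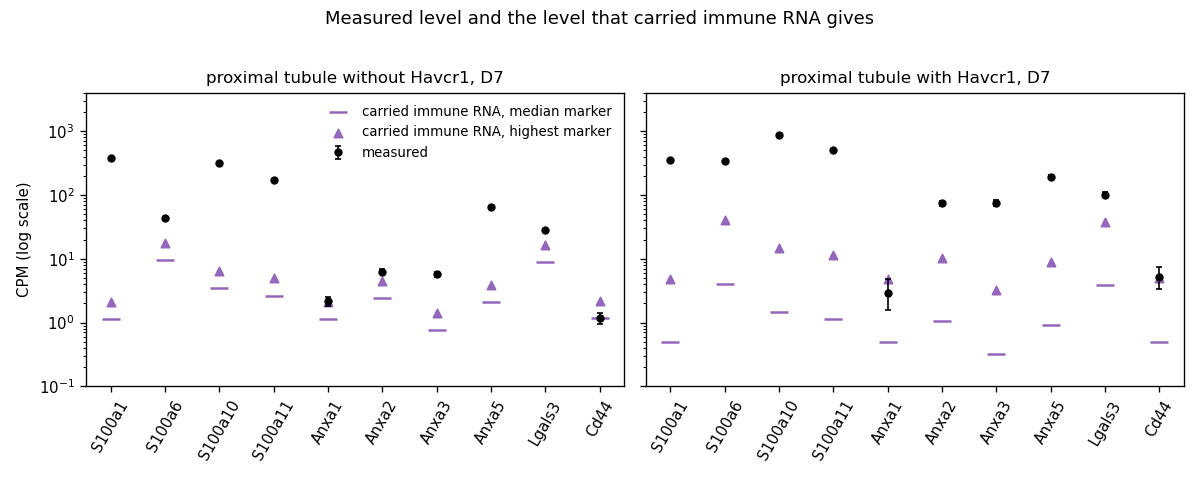
CPM of the 10 genes at D7 in proximal tubule cells without and with Havcr1 (points, with 95% counting intervals), beside the level that carried immune RNA gives by the median (dashes) and the highest (triangles) of 11 markers, on a logarithmic axis. Cd44 lies on the median dash and Anxa1 on the triangle in cells without Havcr1, while S100a1, S100a10, S100a11, Anxa3 and Anxa5 lie well above both in either panel.

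In the thick limb gate Lgals3 and S100a11 were far higher under glyoxylate, while Anxa2 was not. Lgals3 stood at 163, 687, 575 and 965 CPM from 100, 511, 331 and 1095 UMIs. D0 lay far below the other libraries, and D7 was 5.93 (4.83 to 7.36) times D0. A Lgals3 UMI was found in 13.6% of thick limb cells at D0 and in 52.0% at D7 after thinning, and in 39.6 and 90.2% without it, beside 0.444 and 1.54% of proximal tubule cells after thinning. Median depths in the thick limb gate were 4853 and 5890 UMIs. At D1 a single cell held 102 of the UMIs. Carried immune RNA gave 14.8 CPM at D7 by the median marker.

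S100a11 stood at 231, 437, 405 and 584 CPM, and D7 was 2.53 (2.11 to 3.05) times D0. S100a1 stood at 691, 823, 934 and 980.0 CPM, a D7 ratio of 1.42 (1.27 to 1.59), under the 1.5-fold limit. S100a6 stood at 11.4, 98.2, 99.1 and 102 CPM from 7, 73, 57 and 116 UMIs, and at D1 10 cells held all of its UMIs. Carried immune RNA gave 24.2, 43.9, 59.5 and 15.6 CPM by the median marker and 86.4, 70.3, 102 and 50.4 CPM by the highest. The measured level lay under the median at D0 and under the highest marker at D4, and above both at D1 and D7. S100a10 stood at 224, 270.4, 264 and 348 CPM, with D7 1.55 (1.27 to 1.90) times D0. The median proximal tubule marker stood in this gate at 26.5% of its source level at D0 and 29.5% at D7. S100a10 in that source, proximal tubule cells unmarked for classes outside the nephron, stood at 150 and 342 CPM. The part of proximal tubule RNA in the ratio of 1.55, close to the 1.5-fold limit, was not tested. Anxa2 and Anxa5 differed little: Anxa2 stood at 66.7, 64.6, 74.8 and 79.3 CPM and Anxa5 at 205, 235, 275 and 273 CPM. Anxa2 in particular had the same level at D1 as at D0 within counting error, at a ratio of 0.968 (0.625 to 1.51). Anxa1, Anxa3 and Cd44 had fewer than 50 UMIs in each pair and were not counted.

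Of the 7 genes that could be counted in the thick limb gate, 3 were higher at D1, 3 at D4 and 4 at D7, and none lower. Over all genes tested there, 12.7, 11.2 and 13.6% were higher and 3.9, 5.37 and 4.93% lower. The median log2 ratio at D7 was 0.63 for the 7 genes and 0.11 for all genes.

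In the distal gate S100a10, S100a11, Anxa5 and Lgals3 were highest at D1 or D7 and lowest at D0. S100a10 stood at 129, 338, 240.1 and 296 CPM. S100a11 stood at 119, 317, 243 and 337 CPM. Lgals3 stood at 70.8, 221, 179 and 291 CPM. The D7 ratios were 2.29 (1.99 to 2.64), 2.83 (2.45 to 3.26) and 4.11 (3.45 to 4.91). D1 stood above D4 for all 3, and at D1 the 10 highest of 264 cells held 48.3, 51.2 and 38.2% of their UMIs. Anxa5 stood at 93.3, 188, 119.7 and 171 CPM, with D7 1.83 (1.54 to 2.18) times D0. S100a1 stood at 1004, 1084, 1002 and 1164 CPM, above its level in the proximal tubule and thick limb gates on every day, with a D7 ratio of 1.16 (1.09 to 1.23). The median proximal tubule marker stood in the distal gate at 25.5, 17.8, 45.5 and 30.9% of its source level. S100a10 in that source stood at 150 CPM at D0 and 342 CPM at D7. The median immune marker stood in the distal gate at 2.09% at D1 and the highest at 10.6%. The part of these RNAs in the distal levels and ratios was not tested.

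Few UMIs of Anxa2 and Anxa3 were found in the distal gate before glyoxylate. Anxa2 stood at 0.848, 23.5, 8.03 and 16.8 CPM from 2, 45, 10 and 33 UMIs. Anxa3 stood at 0.424, 18.8, 6.43 and 19.3 CPM from 1, 36, 8 and 38 UMIs. Both had under 50 UMIs in each pair and were not counted, and their ratios at D7 were 19.8 (5.06 to 170.0) and 45.5 (7.69 to 1845). Summed phagocyte markers in the gate stood at 38.2, 422, 132 and 153 CPM, highest at D1, and 2 of the 10 were at 0 at D0. At D1 carried immune RNA gave 11.7 CPM of Anxa2 by the median and 59.5 CPM by the highest marker, around the measured level. For Anxa3 it gave 1.28 and 6.49 CPM, under it. S100a6 stood at 6.36, 86.0, 28.1 and 23.9 CPM, and at D1 1 cell held 74 of its 165 UMIs. Carried immune RNA at D1 gave 42.9 and 218 CPM of S100a6 by the median and highest marker. Its D7 level of 23.9 CPM lay near the 17.9 CPM that carried immune RNA gives. RNA of thick limb cells would add 93.7 CPM of Lgals3 to the distal gate at D7 by the median of 6 thick limb markers. Median mitochondrial share in the distal gate was 32.5, 25.7, 21.6 and 19.3%, lower on each later day, and its part in these ratios was not tested.

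Of the 6 genes counted in the distal gate, 5 were higher at D1, 4 at D4 and 5 at D7, and none lower. Over all genes 7.88, 15.3 and 15.1% were higher and 4.23, 4.03 and 2.08% lower. The median log2 ratio at D7 was 1.34 for the 6 genes and 0.21 for all genes.

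Lyz2-high cells had more Anxa1, Anxa2, Cd44, S100a6 and Lgals3 than any tubule gate on every day, and several members were highest at D1. Anxa1 stood at 111, 233, 116 and 169 CPM. Anxa2 stood at 333, 561, 308 and 365 CPM. S100a6 stood at 1309, 2055, 1329.8 and 1407 CPM. All 3 were highest at D1 and back near D0 at D4, and the D1 ratios were 2.10 (1.67 to 2.67), 1.68 (1.47 to 1.93) and 1.57 (1.47 to 1.68). S100a11 stood at 394, 680.5, 286 and 397 CPM, again highest at D1. Lgals3 stood at 907, 1235, 857 and 1333 CPM, with D1 and D7 above D0 and D4. Anxa3 stood at 38.8, 61.2, 35.8 and 112 CPM from 30, 136, 32 and 277 UMIs. D7 was apart from the other 3 libraries, at 2.90 (1.99 to 4.38) times D0. Anxa5 stood at 202, 300.4, 248 and 311 CPM and S100a10 at 389, 536, 429 and 512 CPM. Cd44 stood at 215, 210.0, 132 and 174 CPM, lowest at D4, where its ratio to D0 was 0.615 (0.481 to 0.783).

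Neutrophil markers in this gate summed to 3451, 6739, 496 and 653 CPM, with none of the 5 at 0 in any library. They were highest at D1, as were Anxa1, Anxa2, S100a6 and S100a11, and their part in the levels above was not tested. S100a1 there stood at 145, 149.8, 223 and 169 CPM, where proximal tubule RNA alone would give 138, 112, 184 and 136 CPM by its median marker. Most of the measured S100a1 lay at the level that tubule RNA gives. Of the 10 genes 5 were counted as higher at D1, 1 (S100a1) at D4 and 3 at D7, and 1 (Cd44) as lower at D4. Over all genes 8.89, 9.39 and 9.21% were higher and 5.82, 9.57 and 7.69% lower, so the counts at D4 lie near the background. The median log2 ratio was 0.61, -0.03 and 0.31 for the 10 genes, beside 0.08, 0.02 and 0.01 for all genes.

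A list of 50 other genes of the same families and their partners put the 10 in context. In the proximal tubule gate 31 of them had enough UMIs at D7, and 10 were higher and 1 (S100a14) lower, beside 7.24% and 1.62% of all genes, with a median log2 ratio of 0.34. Without urothelial or mesenchymal cells 10 of 30 were higher and 0 lower, so the lower call of S100a14 rests on those cells. The 4 with the largest ratio of CPM plus 1 are named. Spp1, which encodes osteopontin, a ligand of CD44, stood at 275 CPM at D0 and 2309 CPM at D7, a ratio of 8.39 (8.27 to 8.51). Plaur, the urokinase receptor, stood at 0.376 and 3.92 CPM. Plat, tissue plasminogen activator, stood at 0.0501 and 2.42 CPM, from 4 and 199 UMIs. Cd74, an MHC class II chaperone of leukocytes, stood at 49.1 and 135 CPM. Between cells with and without Havcr1 at D7, 10 of 29 were higher with Havcr1 and 1 lower, beside 9.7% and 4.66% of all genes. Plat, Plaur and Spp1 led there as well, at ratios of 44.7 (32.3 to 62.5), 10.98 (8.72 to 13.8) and 4.91 (4.85 to 4.96). S100g, the calbindin-D9k gene, was lower with Havcr1, at 0.281 (0.246 to 0.321). p11 and annexin A2 are known as a surface receptor for plasminogen and its activator Plat.

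In Lyz2-high cells 5 of 23 genes of that list were higher at D7 and 3 lower, beside 9.21% and 7.69% of all genes. The neutrophil genes S100a8 and S100a9 were lower, at ratios of 0.156 (0.140 to 0.173) and 0.216 (0.198 to 0.235). Spp1 was higher at 11.8 (9.49 to 14.9) and the tubular calcium-binding gene S100g at 4.41 (2.83 to 7.24), and the gate holds tubular RNA as given above.

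Over 19 profiles (5 gates by day, at least 50 cells each), the genes with the highest Pearson correlation of log2(CPM + 1) were found for each of the 10 among 13216 genes, and the 3 highest are named with their r. The profiles share libraries and carried RNA, and the correlations describe these sums only. For Lgals3 they were Junb (0.968), Rcc2 (0.957) and Actg1 (0.956). For Anxa2 they were Clic1 (0.962), Capg (0.946) and Ahnak (0.943). For Anxa3 they were Rras (0.914), Rnh1 (0.912) and Gch1 (0.897). For S100a11 they were Pdlim7 (0.921), Myl12a (0.906) and Myof (0.896), and for S100a10 Ptp4a1 (0.908), Sptlc2 (0.885) and Nop56 (0.859). For S100a1 they were Ppat (0.981), Atp1b1 (0.979) and Lrba (0.977). For Anxa5 they were Myh9 (0.937), Btg2 (0.936) and Ssbp4 (0.933). For Cd44 they were Cmtm7 (0.980), Rftn1 (0.980) and Rac1 (0.980), and for Anxa1 Casp4 (0.974), Syk (0.972) and Ptgs2 (0.972). For S100a6 they were Btf3 (0.939), Rps26 (0.936) and Rpl15 (0.936), and without cells marked for a class outside the nephron Tpm4 (0.964), Plaur (0.963) and Ostc (0.953).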

How the data were processed

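Kidney cells of 4 libraries, 1 per day, were analysed. The deposited matrices hold raw UMI counts per gene and barcode. The submitters' processing notes name Cell Ranger 3.1.0 and mm10. Per the file headers, the matrices were written by software version 3.0.1. Neither the annotation release nor the cell calling is given in the sources used here. Members and gene lists were chosen with earlier results of these data known.

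Gates and marker lists were applied to the counts in Python 3.11.15 (numpy 2.4.6, scipy 1.17.1, pandas 2.3.3, matplotlib 3.10.9). Counts were summed per gate and library and scaled to CPM, with 95% exact Poisson intervals for levels, exact binomial intervals for their ratios, and Clopper-Pearson intervals for shares of cells thinned to 1000 UMIs. A gene was counted when a pair of sums held at least 50 UMIs, and called at 1.5-fold with a pseudocount of 1 CPM. No p-value was computed, since each day is 1 library. No doublet caller was run: alternatives left out the top 10% of cells by UMIs or cells in more than 1 gate. Other alternatives were TMM factors (edgeR 4.0.16, R 4.3.3), doubled UMI minimums, a pseudocount of 10, carried immune RNA taken off, and stricter mitochondrial, depth and immune limits. Beyond the 10 members, the text names the 4 genes of a wider list with the largest ratio in each gate described, and the 3 genes most like each member. The ratio step was tested on simulated data for the proximal tubule gate: of 11563 genes, 200 were changed, 200 of these came out within 0.5 log2, 187 intervals held the true ratio, and 0 of 11363 unchanged genes passed 1.5-fold. Both simulated sums were Poisson draws from the D0 sums, the model that the intervals assume. UMIs that crowd in few cells were therefore not covered by it. Library totals were 99337001, 85009491, 91122085 and 94512170 UMIs.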

Additional observations from a re-analysis of the deposited data

Results flagged for a closer look

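S100a6 went in opposite directions in different gates, which share some cells, and the difference between gates was not tested. At D4 its level over that at D0 was 0.502 in the proximal tubule gate, 8.70 in the thick limb gate and 4.42 in the distal gate. At D7 the ratios were 0.345, 8.98 and 3.75. The proximal tubule ratios with the urothelial or mesenchymal cells left out were 1.54 at D4 and 4.15 at D7, on the same side of 1 as the other gates. Among proximal tubule cells without Havcr1 and without cells marked for any class outside the nephron, the D4 ratio was 0.709 (0.638 to 0.787). At D4 carried immune RNA gave 59.5 CPM by the median and 102 CPM by the highest marker in the thick limb gate, where 99.1 CPM were measured. In the distal gate it gave 17.0 and 29.9 of 28.1 CPM at D4 and 17.9 and 27.7 of 23.9 CPM at D7. The thick limb and distal sums at D0 held 7 and 15 UMIs.

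Barcodes with over 50% mitochondrial UMIs, which entered no gate, also held more of 7 members at D7 than at D0. The ratios of CPM were 1.72 for S100a1, 3.44 for S100a10, 3.12 for S100a11, 3.62 for Anxa2, 3.50 for Anxa5, 5.17 for Lgals3 and 4.39 for Cd44. Over all genes with at least 50 UMIs in these barcodes, 8% had a lower interval bound past 1.5, the rule by which these were picked, and the median log2 ratio was 0.43, beside 1.65 for the 6 members with that many UMIs, of which 5 were past it. Anxa2 and Cd44 fell short of that minimum, with 14 and 13 UMIs of Anxa2 and 8 and 9 of Cd44 at D0 and D7. Of the other members, S100a6 stood at 14.1 and 18.2 CPM, Anxa1 had 2 and 3 UMIs and Anxa3 9 and 2. There were 1941 such barcodes at D0 and 632 at D7, with a median mitochondrial share of 84.9 and 64.7%, and the part of that share in these ratios was not tested.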

How the results depend on the processing

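No paired analysis was possible because each day is 1 library. Of 372 repeats of 36 counts of members, 325 stayed within 1.5 times, and none of those for the thick limb and distal gates moved beyond it. Counts of 0 that stayed at 0 are among the 325. All counts of lower members in the thick limb and distal gates were of that kind. For these repeats the share of all genes was recounted only where marker cells were left out. The other counts below have no such share beside them, so nothing is read from their size. With the UMI minimums of the gates doubled, the members higher were 2 in the proximal tubule gate at D1, 2 at D1 and 2 at D4 without Havcr1, 3 at D1 and 1 at D7 in Lyz2-high cells. Members lower were then 0 at D4 in the gate and without Havcr1, and 1 with against without Havcr1 at D7. With a pseudocount of 10 CPM, 2 were higher in the gate at D1, and 1, 0 and 4 without Havcr1 at D1, D4 and D7. With Havcr1 at D1, 0 were then lower. Thinning gave 8 higher in the gate at D1, 3 lower at D4 and 5 higher at D7 in Lyz2-high cells, and 1 lower with Havcr1 at D7. Without the top 10% of cells by UMIs, 0 were lower at D4 and D7 in the gate and without Havcr1, 2 were higher without Havcr1 at D4, and 1 was lower with Havcr1 at D7. With at most 25% mitochondrial UMIs, 2 were higher without Havcr1 at D1 and 1 in Lyz2-high cells at D7. With at least 3000 UMIs, 0 and 1 were higher in Lyz2-high cells at D4 and D7. TMM scaling, which shifted all log2 ratios by up to -0.24 (distal gate, D7) and by -0.13 in the proximal tubule gate at D1, gave 3 higher without Havcr1 at D1 and 0 in Lyz2-high cells at D4. Leaving out cells in more than 1 gate gave 0 higher without Havcr1 at D4.

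With carried immune RNA taken off, 3 and 0 were higher without Havcr1 at D1 and D4, 2 lower at D4, and 1 lower with Havcr1 at D1. Cells at 0 for 5 immune genes gave 3 higher without Havcr1 at D1 and 1 lower with Havcr1 at D1. Without urothelial or mesenchymal marker cells, chosen after the data were seen, 0 were lower at D4 and D7 in the gate and without Havcr1, and 3 were higher without Havcr1 at D4. Of all genes, 0.74 to 1.36% were then lower in these 4 comparisons, and 4.25% were higher without Havcr1 at D4. Without cells of any class outside the nephron, also chosen after the data were seen, 0 were lower in the same 4 comparisons, 2 were higher without Havcr1 at D4, and 1 was lower with Havcr1 at D1. These repeats count the members that had 50 UMIs with all cells: that 1 was Anxa1, at 33 UMIs after the cells were left out, and of the 8 members that kept 50 UMIs 0 were lower. Of all genes, 0.786 to 1.33% were lower in the 4 comparisons under this choice. With 3.9% of all genes higher without Havcr1 at D4, 10.6% were lower with Havcr1 at D1. The ratio of CPM plus 1 for S100a6 at D7 turned to 3.91 and 3.41 in the gate, and to 2.52 and 2.29 without Havcr1, under these last 2 choices. Cd44 without Havcr1 at D7 went to a ratio of 1 with carried RNA taken off. Over D1 and D4 other directions turned for S100a6 in the proximal tubule gate (to CPM ratios of 1.54 and 1.22 at D4, and a ratio of CPM plus 1 of 1.09 without Havcr1), and with against without Havcr1 for S100a6 at D1 (doubled minimums, 0.0846), Anxa1 at D4 (0 immune UMIs, 0.693) and Cd44 at D4 (without the top 10%, 0.975). Of all genes with at least 1 UMI in a pair, in place of 50, 29.9, 26.5 and 18.8% were higher and 15.0, 5.83 and 15.9% lower at D7 in the thick limb, distal and Lyz2-high gates. The cause of these changes was not tested. Scarce genes (Anxa1, Cd44) and the 106 to 173 thick limb cells are limited by counts, and the spread between mice is unknown.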
